A study of Mus musculus with 12 samples.

Results

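The fibroblast growth factor (FGF) genes described here were 10 in number, of 18784 genes with a named value on the arrays. They were chosen by name, for their place in the pathway, with earlier results of these data known. They comprised the ligand genes Fgf4, Fgf5, Fgf8 and Fgf15, the receptor genes Fgfr1, Fgfr2 and Fgfr3, and the feedback genes Spry2, Spry4 and Dusp6. RNA was measured on 12 Affymetrix mouse gene arrays in 4 groups of 3. Control embryonic stem cells (ESC) of the feeder-independent line E14TG2a.4 carried a scrambled lentiviral shRNA, and knockdown ESC carried an shRNA against Jarid1b, now named Kdm5b, a demethylase of lysine 4 on histone H3. Control and knockdown neural progenitor cells (NPC) carried the same respective constructs and were generated from ESC by a published differentiation protocol. ESC were kept in serum with LIF, a cytokine that maintains them. Cells were exposed to virus for 16 h and put under puromycin 48 h after transduction, so all 4 groups share lentiviral integration and drug selection. The labels name 1 Jarid1b shRNA construct and 1 ESC line. Whether a group's 3 arrays stand for independent transductions is not stated, so the p-values rest on array-to-array spread that may be partly or wholly technical.

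FGF ligands are secreted proteins that bind tyrosine kinase receptors at the cell surface together with heparan sulfate, and the activated receptor signals through RAS and the kinases RAF, MEK and ERK. ERK signalling switches on genes whose products damp it, among them the Sprouty proteins, which act between receptor and RAF, and DUSP6, a phosphatase that removes the activating phosphates from ERK. In mouse ESC, FGF4 made by the cells themselves drives exit from self-renewal towards lineage commitment, and in the neural tube FGF signalling supports progenitor growth and patterning.

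The sequences before the start sites of 3 of these genes are shown because their values carry the findings: Fgf4 differed most between ESC and NPC, and Fgf5 and Dusp6 were called lower in knockdown ESC. Each line holds the 250 bases before the RefSeq start site on the gene's strand, 5′ to 3′, in assembly GRCm38.p6. Capitals mark a GC box (GGGCGG, or CCGCCC on the other strand) or a CCAAT box (CCAAT, or ATTGG on the other strand).
Fgf4 (chr7:144861136-144861385, + strand): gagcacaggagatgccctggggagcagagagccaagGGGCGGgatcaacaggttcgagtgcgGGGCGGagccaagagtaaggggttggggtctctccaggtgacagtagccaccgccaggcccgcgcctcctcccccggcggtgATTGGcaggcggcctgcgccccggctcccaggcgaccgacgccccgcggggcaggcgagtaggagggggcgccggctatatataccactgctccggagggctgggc
Fgf5 (chr5:98253934-98254183, + strand): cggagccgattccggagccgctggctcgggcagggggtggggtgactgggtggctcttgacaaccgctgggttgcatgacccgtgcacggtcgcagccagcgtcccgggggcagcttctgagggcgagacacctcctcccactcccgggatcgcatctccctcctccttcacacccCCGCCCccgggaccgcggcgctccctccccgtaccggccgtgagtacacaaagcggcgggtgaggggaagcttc
Dusp6 (chr10:99262981-99263230, + strand): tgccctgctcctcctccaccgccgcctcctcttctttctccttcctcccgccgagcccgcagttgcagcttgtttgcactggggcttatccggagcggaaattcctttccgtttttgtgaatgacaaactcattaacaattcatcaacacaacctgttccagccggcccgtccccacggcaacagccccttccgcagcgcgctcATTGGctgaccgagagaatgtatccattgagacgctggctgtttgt
The Fgf4 window had 2 GC boxes, 214 to 209 and 188 to 183 bases before the start, and a CCAAT box 106 to 102 bases before it. The Fgf5 window had a GC box 74 to 69 bases before the start, and the Dusp6 window a CCAAT box 46 to 42 bases before it. Of 32851 windows of this length over all genes, 32.7% held a GC box and 33.8% a CCAAT box, so both motifs are common. The windows of Fgf4 and Fgf5 were rich in G and C (71.2% and 70.8%) and that of Dusp6 less so (56.4%), against a median of 52.4% over all windows. A window was given for 6 of the 10 genes, also for Fgfr2, Fgfr3 and Spry2. Only the exact TATA box letters TATAAA were searched for, not variants such as the TATATATA near the end of the Fgf4 window. These exact letters were in none of the windows of these 6 genes on either strand and in 12.4% of all windows. The ETS core CCGGAAG was likewise in none of them and in 6.91% of all windows. The TCF/LEF core CTTTGA was in none of them and in 13.8% of all windows. The AP-1 site TGACTCA was in none of them and in 4.46% of all windows.

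The arrays report 1 RMA-normalised value per probe set on the log2 scale, so a difference of 1 is a doubling, and no detection calls. Array medians lay between 7.70 and 7.79 and lower quartiles between 5.84 and 6.11. Each FGF gene had 1 probe set, and none of their values fell below the lower quartile of its array. The lowest was 6.72, for Fgfr3. Arrays of a group correlated at 0.992 to 0.997 across genes. Kdm5b fell in knockdown ESC from 12.41 ± 0.14 to 10.68 ± 0.20 (SD, n = 3 each), and in knockdown NPC from 11.23 ± 0.078 to 10.47 ± 0.081 (SD, n = 3 each). Its levels did not overlap between control and knockdown arrays of either state. In NPC against ESC, all 10 ESC markers listed fell in both control and knockdown cells. The 9 neural progenitor markers measured, among them Pax6, Nes and Sox1, rose in both, so these lists follow the labels. Other lists moved too in control NPC, where 23.5% of all genes rose and 25.1% fell. Rises and falls were 7 and 1 of 8 neuron markers, 5 and 2 of 7 endothelial markers, and 4 and 0 of 7 endoderm markers. Of 7 fibroblast and mesenchyme markers, 5 rose and 2 fell. Of 6 glia markers 1 rose and 1 fell, and of 6 mesoderm markers 1 rose and 2 fell. The part of such cells in the NPC values was not tested.

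Every FGF gene passed the test between control ESC and control NPC in the fit without pairing. With same-numbered arrays as pairs, a replicate block on the 6 control arrays, Fgfr1 did not (limma, adjusted p = 0.0536). Fgf4, which encodes the main FGF of ESC, fell most, the receptors Fgfr2 and Fgfr3 rose several-fold, and the feedback genes parted: Spry2 and Spry4 fell while Dusp6 rose. In all, 4 of the 10 genes rose and 6 fell at an adjusted p under 0.05 (limma, Benjamini-Hochberg over all genes), against 48.6% of all genes called in this comparison, 23.5% higher and 25.1% lower. The groups did not overlap for any of the 10, against 52.3% of all genes. The median change of the 10 genes was -0.68, against -0.042 for all genes. In such bulk samples, fewer cells of a type and less RNA per cell cannot be told apart.

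Among the ligands, Fgf4 read 12.44, 12.25 and 12.32 on the 3 control ESC arrays and 7.75, 7.61 and 7.16 on the 3 control NPC arrays. Every ESC array was far above every NPC array. The mean fell from 12.34 ± 0.098 to 7.51 ± 0.31 (SD, n = 3 each), a change of -4.83 ± 0.15 (SE), or 28.5-fold (limma, adjusted p = 3.6e-11). This was the 23rd most negative change of all 18784 genes. Fgf15, a ligand gene of the endocrine FGF subfamily that is expressed in the developing neural tube, read 9.60, 10.16 and 10.25 in control ESC and 8.36, 7.80 and 8.89 in control NPC. The control NPC arrays spread widely but stayed below all ESC arrays, and the change was -1.65 ± 0.23 (SE), or 3.14-fold lower (limma, adjusted p = 4.71e-05). Fgf5, a ligand gene that marks the formative and primed states reached when ESC leave naive pluripotency, read 8.33, 9.02 and 9.37 in control ESC and 7.95, 7.90 and 8.24 in control NPC. Its lowest ESC array lay just above its highest NPC array, with a change of -0.88 ± 0.24 (SE; limma, adjusted p = 0.00692). Fgf8, a patterning ligand of the primitive streak and the midbrain-hindbrain boundary, ranged from 8.03 to 8.59 in control ESC and from 7.72 to 7.99 in control NPC. Its groups were separated only narrowly, and its change was -0.47 ± 0.13 (SE; limma, adjusted p = 0.00842).

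The receptor genes moved the other way. Fgfr2, whose product is prominent in epithelia and in neural precursors, read 8.36, 8.66 and 8.71 in control ESC and 11.15, 11.10 and 11.03 in control NPC. The NPC arrays were tight and all well above the ESC arrays, a rise of 2.52 ± 0.26 (SE), or 5.73-fold (limma, adjusted p = 2.79e-06). Fgfr3, a receptor of neural progenitors and astrocyte precursors, read 7.63, 6.98 and 6.72 in control ESC and 9.44, 9.69 and 9.12 in control NPC. It rose by 2.31 ± 0.21 (SE), or 4.95-fold (limma, adjusted p = 9.25e-07), from a low level at which RMA compresses differences. Fgfr1, the receptor through which ESC mainly receive FGF4, ranged from 10.99 to 11.15 in control ESC and from 11.20 to 11.60 in control NPC. Its change was the smallest, at 0.29 ± 0.10 (SE; limma, adjusted p = 0.0305). Fgfr1 was no longer called without control ESC array 1 (adjusted p = 0.0973), control ESC array 2 (0.0535) or control NPC array 2 (0.123), and with the 6 control arrays alone (0.0971; 0.0536 with the replicate number as a block there). The block on all 12 arrays kept it. The probe sets summarise whole genes, so receptor splice forms with different ligand preferences were not separated.

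Of the feedback genes, Spry4 read 10.97, 11.30 and 11.09 in control ESC and 8.79, 8.63 and 9.04 in control NPC. The separation was wide, and the gene fell by 2.30 ± 0.13 (SE) on the log2 scale, or 4.93-fold (limma, adjusted p = 8.31e-09). Spry2, the other Sprouty gene of the set, read 10.16, 10.37 and 10.49 in control ESC and 8.93, 8.87 and 9.24 in control NPC. It fell by 1.33 ± 0.11 (SE) on the log2 scale, or 2.51-fold (limma, adjusted p = 2.94e-07). Dusp6 read 10.65, 10.54 and 10.66 in control ESC and 11.52, 11.44 and 11.73 in control NPC. All NPC arrays lay above all ESC arrays, a rise of 0.95 ± 0.10 (SE), or 1.93-fold (limma, adjusted p = 4.18e-06). Both Sprouty genes thus fell where the phosphatase gene rose, all with clear gaps between the groups.

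**Figure D1:**
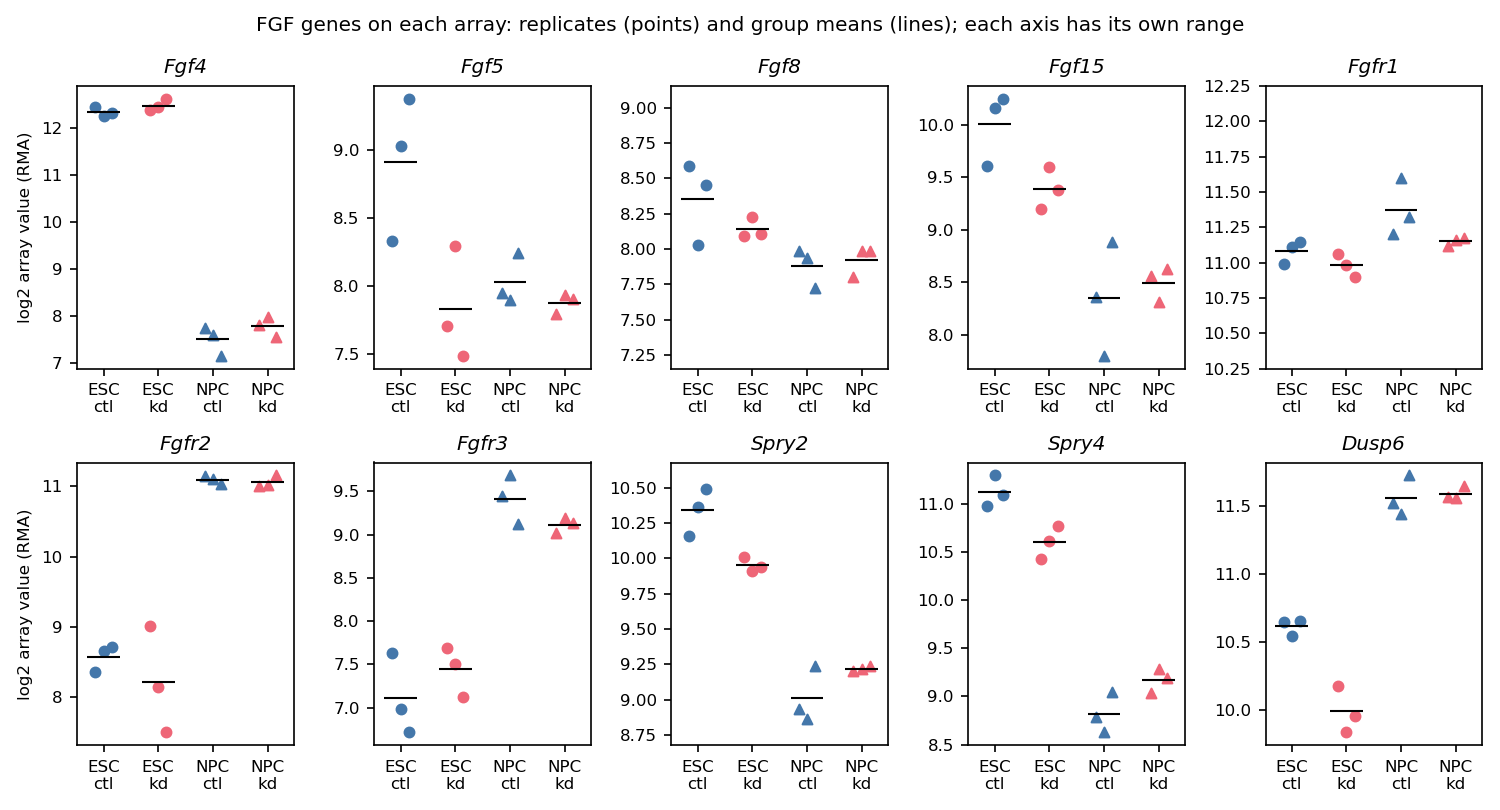
Log2 array values of the 10 FGF genes on each of the 12 arrays, as points for control (ctl, blue) and knockdown (kd, red) arrays of ESC (circles) and NPC (triangles), with group means as lines. Fgf4, Spry2 and Spry4 are high in ESC, Fgfr2, Fgfr3 and Dusp6 are high in NPC, and in ESC the knockdown arrays of Fgf5, Fgf15, Spry2, Spry4 and Dusp6 lie below all control arrays.

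Knockdown of Jarid1b in ESC went with lower RNA of 1 ligand gene and 2 feedback genes, while no receptor gene passed the test. Fgf5, Dusp6 and Spry4 fell and none of the 10 genes rose, against 5.21% of all genes called in this comparison, 1.84% higher and 3.37% lower. The groups did not overlap for 5 of the 10 genes, namely Fgf5, Fgf15, Spry2, Spry4 and Dusp6, against 24.2% of all genes. In each of these 5 the knockdown arrays were the lower ones. Over the 10 genes, 8 changes were negative and the median was -0.37, against 0.017 for all genes.

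Fgf5 had the largest change. It read 8.33, 9.02 and 9.37 in control ESC and 7.71, 8.29 and 7.49 in knockdown ESC. The groups nearly met, since control array 1 and knockdown array 2 lay close together, and both groups spread more than those of most other FGF genes. The mean fell from 8.91 ± 0.53 to 7.83 ± 0.42 (SD, n = 3 each), a change of -1.08 ± 0.24 (SE), or 2.12-fold lower (limma, adjusted p = 0.0212). The 95% interval of the change, per gene and not adjusted, ran from -1.59 to -0.57. The call was lost without control ESC array 2 (adjusted p = 0.0646), control ESC array 3 (0.112), knockdown ESC array 1 (0.0683) or knockdown ESC array 3 (0.1), and it was not made from the 6 ESC arrays alone (0.0719).

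The other ligand genes were not called. Fgf4 read 12.38, 12.44 and 12.62 in knockdown ESC, among and above the control values, a difference of 0.14 ± 0.15 (SE; limma, adjusted p = 0.662). The 95% interval of that difference ran from -0.18 to 0.46. Fgf15 read 9.20, 9.59 and 9.37 in knockdown ESC, all below the lowest control value of 9.60 though by little. Its difference was -0.61 ± 0.23 (SE), with a 95% interval of -1.12 to -0.11 and an adjusted p of 0.16 (limma). Fgf8 ranged from 8.09 to 8.23 in knockdown ESC, within the control range, with a difference of -0.21 ± 0.13 (SE; limma, adjusted p = 0.419).

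Among the receptor genes, Fgfr1 differed by -0.10 ± 0.10 (SE; limma, adjusted p = 0.655), with a 95% interval of -0.32 to 0.12. Fgfr3 differed by 0.33 ± 0.21 (SE; limma, adjusted p = 0.443). Fgfr2 read 9.01, 8.14 and 7.50 in knockdown ESC, a spread of 0.76 (SD, n = 3) against 0.19 in control ESC. Knockdown array 1 lay above all control arrays and arrays 2 and 3 below them, so the difference of -0.36 ± 0.26 (SE; limma, adjusted p = 0.507) describes no common shift. Without knockdown ESC array 1 the difference was -0.75 and was called (adjusted p = 0.0315).

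All 3 feedback genes had lower values on every knockdown ESC array than on any control ESC array. Dusp6 read 10.65, 10.54 and 10.66 in control ESC and 10.17, 9.84 and 9.96 in knockdown ESC, a clear gap. Its mean fell from 10.62 ± 0.064 to 9.99 ± 0.17 (SD, n = 3 each), a change of -0.63 ± 0.10 (SE), or 1.54-fold (limma, adjusted p = 0.00628). Dusp6 was the one gene of the 3 called that kept its call in all 22 alternatives, with adjusted p between 0.00102 and 0.0382. Spry4 read 10.97, 11.30 and 11.09 in control ESC and 10.42, 10.62 and 10.77 in knockdown ESC. The groups were apart by less than the range within either of them, and the change was -0.52 ± 0.13 (SE), or 1.43-fold lower (limma, adjusted p = 0.0369). Spry4 was no longer called without control ESC array 2 (adjusted p = 0.121) or 3 (0.126), knockdown ESC array 1 (0.126), 2 (0.0945) or 3 (0.0592), or knockdown NPC array 3 (0.0567), and with the 6 ESC arrays alone (0.0615). Spry2 read 10.01, 9.91 and 9.94 in knockdown ESC, a tight group below the control values of 10.16 to 10.49. Its difference of -0.39 ± 0.11 (SE) missed the threshold (limma, adjusted p = 0.061), and passed it without control ESC array 1 (0.0231), control NPC array 2 (0.0454) or control NPC array 3 (0.0345).

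Control ESC array 1 stood at one end for most of these genes. It was the lowest control ESC array for Fgf5, Fgf15, Fgfr1, Fgfr2, Spry2 and Spry4 and the highest for Fgf4, Fgf8 and Fgfr3. Without it the Fgf5 call had an adjusted p of 0.00295.

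**Figure D2:**
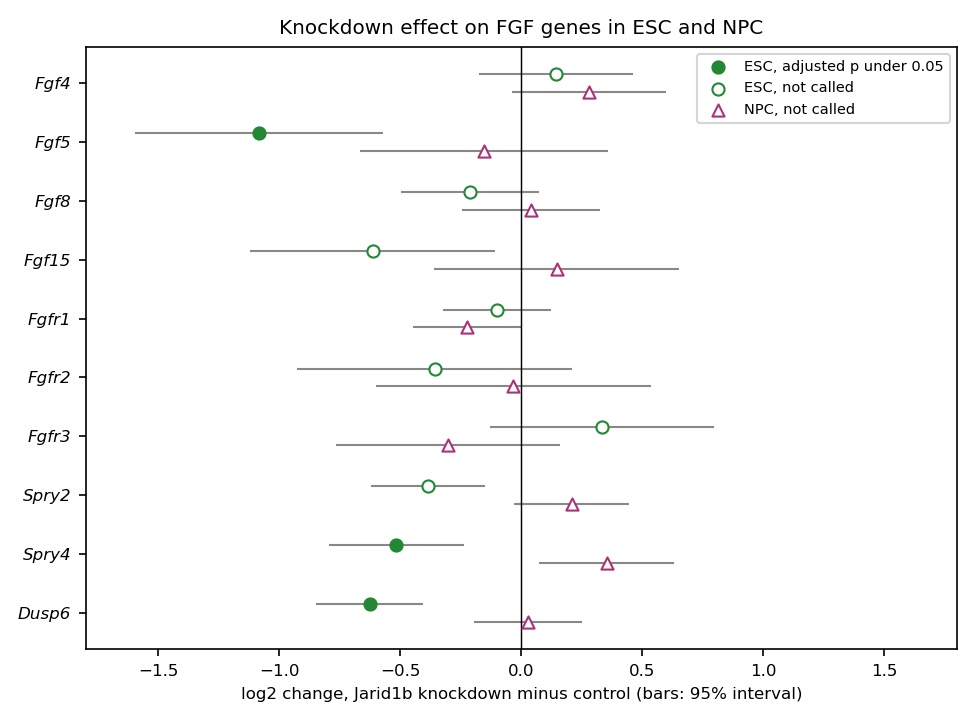
Log2 change of the 10 FGF genes with Jarid1b knockdown, in ESC (green circles) and in NPC (purple triangles), each with its unadjusted 95% interval; filled symbols have an adjusted p under 0.05. Fgf5, Spry4 and Dusp6 are filled and lie between -1.08 and -0.52 in ESC, and no gene is filled in NPC.

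Knockdown in NPC called 0 of the 10 FGF genes (limma), against 1.03% of all genes, 0.820% higher and 0.213% lower. At an unadjusted p under 0.05 there were 2, Fgfr1, which was lower, and Spry4, which was higher. The share of all genes at this unadjusted threshold was not determined, so that count cannot be judged against it. The groups did not overlap for 1 gene, Fgfr1, against 14.2% of all genes. Fgfr1 read 11.20, 11.60 and 11.32 in control NPC and 11.12, 11.16 and 11.18 in knockdown NPC. The knockdown arrays sat just under the lowest control array, with a difference of -0.22 ± 0.10 (SE; limma, adjusted p = 0.518). Spry4 read 8.79, 8.63 and 9.04 in control NPC and 9.04, 9.28 and 9.20 in knockdown NPC, where the lowest knockdown array and the highest control array were nearly equal. Its difference was 0.35 ± 0.13 (SE), with an unadjusted 95% interval of 0.075 to 0.63 and an adjusted p of 0.327 (limma). Dusp6 read 11.57, 11.56 and 11.65 in knockdown NPC, inside the control range, and its difference of 0.029 ± 0.10 (SE; limma, adjusted p = 0.984) had a 95% interval of -0.19 to 0.25. Fgf5 differed by -0.16 ± 0.24 (SE; limma, adjusted p = 0.952), with an interval of -0.67 to 0.36 that still holds part of the range seen in ESC.

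The remaining genes in NPC lay in mixed order. Fgf4 read 7.82, 7.97 and 7.57 in knockdown NPC and differed by 0.28 ± 0.15 (SE; limma, adjusted p = 0.625), and Spry2, at 9.20 to 9.24, by 0.21 ± 0.11 (SE; limma, adjusted p = 0.628). Fgf15, Fgf8 and Fgfr2 differed by 0.15, 0.041 and -0.033, and Fgfr3 by -0.30 ± 0.21 (SE; limma, adjusted p = 0.8). Over the 10 genes 4 differences were negative and the median was 0.035, against 0.0037 for all genes. Kdm5b itself fell less in NPC, by 0.76 ± 0.11 on the log2 scale, than in ESC, by 1.73 ± 0.11 (SE), and this difference between states was itself called (limma, adjusted p = 0.0172). It was not called without control ESC array 3 (0.0591) or knockdown NPC array 2 (0.0512).

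Whether knockdown acted differently in the 2 states was tested directly, as the change in NPC minus the change in ESC. Of the 10 genes, 2 were called, both more positive in NPC, against 1.42% of all genes, 1.18% higher and 0.245% lower. Spry4 differed by 0.87 ± 0.18 (SE), with a 95% interval of 0.48 to 1.26 (limma, adjusted p = 0.0407), and Dusp6 by 0.66 ± 0.15 (SE), with an interval of 0.34 to 0.97 (limma, adjusted p = 0.0469). Both stood close to the threshold. Leaving out 1 array ended the Spry4 call in 10 of 12 cases, all but control ESC array 1 and control NPC array 3, with adjusted p from 0.0646 to 0.103. It ended the Dusp6 call in 10 of 12 cases, all but knockdown ESC array 1 and control NPC array 3, with adjusted p from 0.0518 to 0.133. The Dusp6 call also ended with the replicate number as a block (0.0516). Spry2 had a like difference of 0.59 ± 0.15 (SE) that was not called (limma, adjusted p = 0.08). The difference for Fgf5 was 0.93 ± 0.33 (SE; limma, adjusted p = 0.205) and that for Fgf15 0.76 ± 0.33 (SE; limma, adjusted p = 0.294), so their larger effects in ESC were not shown to differ from those in NPC.

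In knockdown cells, the step from ESC to NPC called 7 of the 10 FGF genes, 3 higher and 4 lower, against 48.8% of all genes, 23.8% higher and 25.0% lower. The groups did not overlap for 9 of them, all but Fgf5, against 62.4% of all genes. The knockdown arrays of each state also enter the knockdown comparisons, so these changes are given beside those of control cells only as values, and the test of the difference between them is the one just given. Fgf4 fell 25.9-fold in knockdown cells and 28.5-fold in control cells. Fgfr2 rose by 2.84 in knockdown and 2.52 in control cells on the log2 scale, and Fgfr3 by 1.67 and 2.31. Spry4 fell 2.69-fold in knockdown and 4.93-fold in control cells, and Spry2 1.67-fold and 2.51-fold. Dusp6 rose 3.03-fold in knockdown cells and 1.93-fold in control cells. Fgf15 fell 1.85-fold in knockdown cells and 3.14-fold in control cells. Fgf5, at 7.83 ± 0.42 in knockdown ESC and 7.87 ± 0.073 in knockdown NPC (SD, n = 3 each), differed by 0.045 (limma, adjusted p = 0.89), and Fgf8 and Fgfr1 were not called either, at -0.22 (limma, adjusted p = 0.187) and 0.17 (limma, adjusted p = 0.196).

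**Figure D3:**
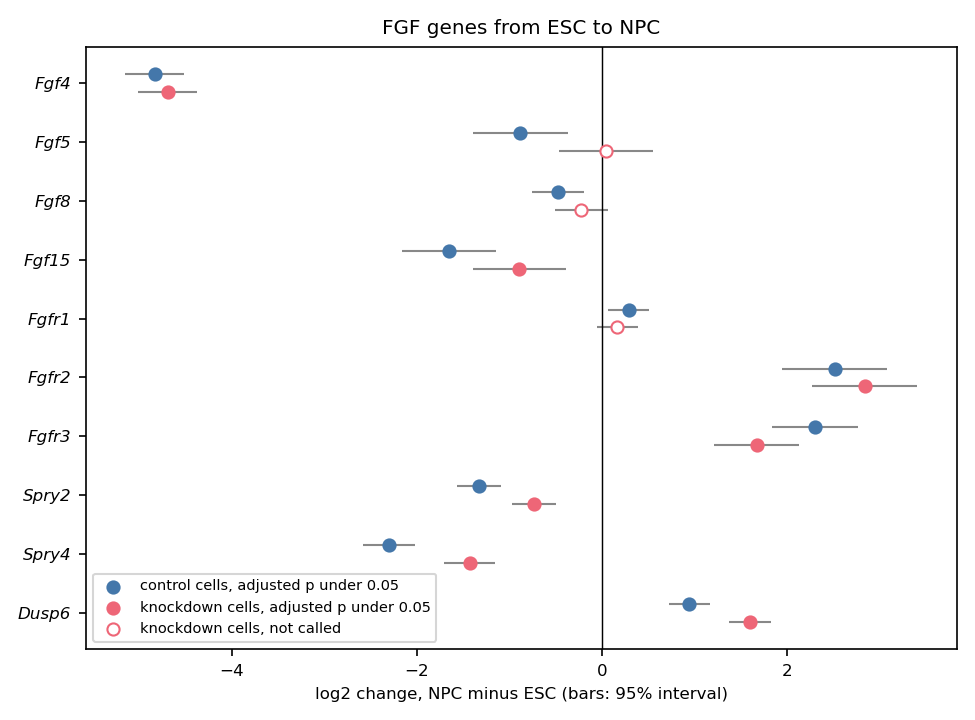
Log2 change of the 10 FGF genes from ESC to NPC in control cells (blue) and knockdown cells (red), each with its unadjusted 95% interval; open circles were not called. Fgf4 lies near -4.83 and -4.69, Fgfr2 and Fgfr3 lie between 1.67 and 2.84, and Fgf5, Fgf8 and Fgfr1 are open in knockdown cells.

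The wider FGF-ERK pathway was described through a list of 95 further genes, of which 86 were measured. In knockdown ESC, 1 of the 86 rose and 10 fell, with a median change of -0.051 over the 86 against 0.017 for all genes. The share of all genes called in that comparison was 1.84% higher and 3.37% lower, against which the counts by role, in small groups, are to be read. Of the feedback inhibitors, 3 of 14 fell and none rose: Dusp5, a nuclear ERK phosphatase, by 0.55 on the log2 scale (limma, adjusted p = 0.019), and the membrane proteins Flrt2 by 0.60 (0.023) and Flrt3 by 0.50 (0.045). The FLRT proteins are not simple inhibitors, since they can also promote FGF signalling. Their list had 11 of 14 negative changes and a median of -0.24. The list of transcriptional targets also holds Elk1, Elk3 and Elk4, genes of ETS factors that ERK acts on. Of its 14 genes 2 fell, Myc by 0.78 (limma, adjusted p = 0.003) and Etv1, an ETS factor, by 0.73 (0.037). The target list had 9 negative and 5 positive changes and a median of -0.12. Etv5, at a mean of 11.69 in both control and knockdown ESC, and Etv4, at 8.45 and 8.59, were not called. Nor were Fos and Egr1, for which knockdown ESC array 1 lay within the control range. Among the 14 other ligand genes 1 fell, Fgf10, by 0.57 (adjusted p = 0.012), and of 16 adaptor and kinase genes none was called.

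Receptors and co-receptors gave 1 rise and 1 fall in 13 genes. The neural cell adhesion molecule gene Ncam1 read 10.23, 10.54 and 10.23 in control ESC and 10.97, 11.01 and 11.29 in knockdown ESC, a rise of 0.76 (limma, adjusted p = 0.0065). The N-cadherin gene Cdh2 read 8.90, 8.97 and 9.19 in control ESC and 8.09, 8.14 and 7.85 in knockdown ESC, a fall of 0.99 on the log2 scale (limma, adjusted p = 0.00094). Both pairs of groups were well apart. Both molecules bind FGF receptors and also act in adhesion. Of 11 genes of heparan sulfate synthesis or sulfate removal 2 fell. These were the sulfotransferase gene Hs6st2 by 1.27 (limma, adjusted p = 0.0056) and the polymerase gene Ext1 by 0.36 (0.026). Hs6st2 was at 6.32 in control and 5.05 in knockdown ESC, near or below the lower quartile of the arrays. Of these 11 calls, 4 were kept on leaving out any 1 array, those of Cdh2, Ncam1, Hs6st2 and Myc. Fgf10 was lost only without knockdown ESC array 3 (adjusted p = 0.0536), and the rest without several arrays, with adjusted p of up to 0.176 for Flrt3. The calls on the list fell to 5 without control ESC array 3 or knockdown ESC array 3 and to 6 without knockdown ESC array 2, and rose to 15 without control ESC array 1 and to 23 with array weights. In knockdown NPC, 0 of the 86 were called (limma).

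**Figure D4:**
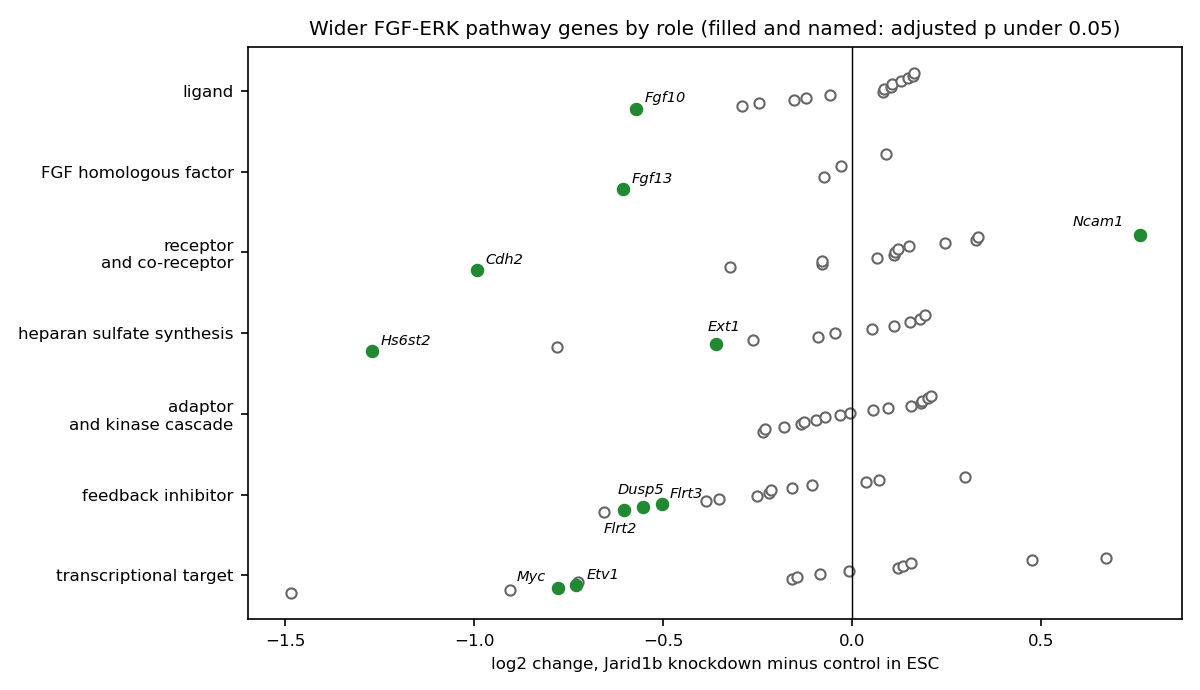
Log2 change with Jarid1b knockdown in ESC of the 86 wider pathway genes, 1 point each, by role; filled and named points have an adjusted p under 0.05, and vertical offsets within a role only separate the points. The 10 named genes that fell lie left of 0, in every role but adaptors and kinases, and Ncam1 is the only named gene to the right of 0.

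From control ESC to control NPC, 45 of the 86 rose and 14 fell, with a median change of 0.32 against -0.042 for all genes. Of all genes 23.5% rose and 25.1% fell in this comparison. The feedback inhibitors gave 8 rises and 3 falls in 14, led by Flrt3 at 3.50 and Flrt2 at 3.16, with the receptor inhibitor genes Lrig1 at 1.24 and Errfi1 at 1.13 and Dusp5 at 1.27. Like Dusp6, these genes rose where Spry2 and Spry4 fell. Other feedback inhibitors went the way of the Sprouty genes. From control ESC to control NPC the mean of Dusp9 went from 11.30 to 10.27, that of Il17rd from 9.10 to 8.17 and that of Spred2 from 11.76 to 11.11. Receptors and co-receptors gave 10 rises and 1 fall in 13, with Cdh2 at 3.15 and the syndecan gene Sdc3, a heparan sulfate carrier, at 2.20. Among the 14 other ligand genes 3 rose and 2 fell: Fgf18 rose by 1.22, and Fgf17 and Fgf1 fell by 2.18 and 1.43 on the log2 scale. The list of transcriptional targets, which includes the Elk genes, split, 5 higher and 4 lower of 14. Phlda1 was at 2.30, the ETS factor gene Elk4 at 1.96, and Etv5, another ETS factor gene, at -2.33. In knockdown cells 45 rose and 16 fell, with Flrt3 at 4.04, Flrt2 at 3.58 and Etv5 at -2.27.

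Genes of other marker lists also changed in knockdown ESC. Of the 6 formative and primed markers other than Fgf5, 5 fell: Lef1, the nuclear partner of beta-catenin, by 2.30 on the log2 scale (limma, adjusted p = 0.00313), Dnmt3b, a de novo DNA methyltransferase, by 1.19 (0.00371), and Sall2, Cldn6 and Pou3f1 by 1.21 (0.00383), 0.96 (0.00747) and 0.55 (0.0138). Otx2 differed by -0.30 (0.416). The mean level of the 6 markers was 9.83 to 10.47 on control ESC arrays, 8.97 to 9.29 on knockdown ESC arrays and 8.82 to 8.96 on NPC arrays. Of 8 immediate early genes, which ERK signalling switches on, Fosb fell by 1.57 (limma, adjusted p = 0.0373) and Jun by 0.94 (0.0232). Pou3f1, Fosb and Jun were not called without control ESC array 3 (adjusted p = 0.0785, 0.184 and 0.126) or knockdown ESC array 3 (0.0641, 0.139 and 0.105). Fosb was also lost without control ESC array 2 (0.116), and Fosb and Jun without knockdown ESC array 2 (0.123 and 0.0778). The mean level of the 8 genes was 8.81 to 9.34 on control ESC arrays and 8.05 to 8.71 on knockdown ESC arrays. The 10 ESC markers gave 0 calls (limma), at 12.37 to 12.39 against 12.50 to 12.52. Of 8 neuron markers 4 fell, Tubb3, Map2, Neurod1 and Nefl, and of 9 neural progenitor markers Pax6 fell and Msi1 rose, where 5.21% of all genes were called. Without control ESC array 3 the calls of Tubb3 (adjusted p = 0.178), Map2 (0.0636), Pax6 (0.0605) and Msi1 (0.16) were lost, and without knockdown ESC array 3 likewise (0.143, 0.0562, 0.0936 and 0.129). Pax6 and Msi1 were also lost without control ESC array 2 (0.0622 and 0.11), Pax6 and Tubb3 without knockdown ESC array 2 (0.0746 and 0.0585), and Msi1 and Tubb3 without knockdown ESC array 1 (0.118 and 0.0809) or knockdown NPC array 3 (0.0517 and 0.054). Tubb3 was also lost without knockdown NPC array 2 (0.0518). The part of these lists in the changes of Fgf5, Spry4 and Dusp6 was not tested.

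In NPC, 4 of the 10 ESC markers rose with knockdown, Esrrb, Tdgf1, Dppa5a and Utf1, and the list's mean level was 7.04 to 7.67 on control NPC arrays and 7.83 to 8.66 on knockdown NPC arrays. This stands beside the values of Spry4 and Fgf4, both genes high in ESC, whose means were higher in knockdown than in control NPC without passing the test. Of 7 endothelial markers 4 fell, Cdh5, Emcn, Tie1 and Cldn5, with a list mean of 7.17 to 8.11 in control NPC and 6.28 to 6.70 in knockdown NPC. On leaving out any 1 array Dppa5a, Utf1, Cdh5 and Emcn kept their calls, whereas Esrrb, Tdgf1, Tie1 and Cldn5 lost theirs without control NPC array 2 (adjusted p = 0.0568, 0.0769, 0.121 and 0.0593) and without other arrays. From the 6 NPC arrays alone none of the 4 former was called (0.0793 to 0.0905), nor with the replicate block on those arrays (0.0618 to 0.0917). The part of these markers in the differences of the FGF genes was not tested.

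For each FGF gene, the genes with the most similar pattern over the 12 arrays were found by Pearson correlation of log2 values. Since arrays fall into ESC and NPC, which set this order, the correlation within 6 ESC arrays and within 6 NPC arrays is given as a description. For Fgf4 they were Mybl2 (0.72 and 0.78), Nfatc2ip (0.70 and 0.74) and Mcf2 (-0.28 and 0.81). For Fgf5 they were Plxdc2 (0.99 and 0.74), Rtn4rl1 (0.99 and 0.19) and Kdm2b (0.94 and -0.092). For Dusp6 they were Ust (0.98 and 0.78), Ppp2cb (0.98 and -0.019) and Vps26b (0.97 and 0.86). The likeness to Fgf5 and Dusp6 held mainly among ESC arrays for Rtn4rl1, Kdm2b and Ppp2cb, and the arrays share their group structure, so these are no independent points.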

How the data were processed

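RNA of 4 groups of 3 samples was hybridised to 12 Affymetrix MoGene 1.0 arrays. The authors deposited log2 values, and the submitters' processing notes name affy, RMA and limma for them. Tool versions and the genome build were not given in the sources used here. The RMA method subtracts background, gives all arrays a common distribution by quantile normalisation and summarises probes; small differences at low levels are compressed by it. Depth does not apply to arrays; their number limits the precision.

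The platform annotation gave 1 symbol for 18786 of 21212 probe sets and several for 6; 2420 were absent from it and are left unnamed. Symbols were checked through Entrez IDs against RefSeq, assembly GRCm38.p6: 18775 matched and 0 changed. The probe set with the highest mean stood for a gene, giving 18784 genes.

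With limma 3.58.1 (R 4.3.3), group means were fitted to the log2 values of the 12 arrays together (lmFit, contrasts.fit, eBayes; 8 residual and 4.81 prior degrees of freedom). Adjusted p-values are Benjamini-Hochberg over 18784 genes, two-sided, and genes under 0.05 are called; 95% intervals are per gene and unadjusted. Steps were tested on simulated data. Promoter windows come from RefSeq.

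Named genes are the 10 FGF genes, Kdm5b, up to 4 called genes with the smallest p per role of the pathway list and contrast, the 3 genes most correlated with an FGF gene (given for 3 of them), and markers. The FGF genes, lists and rule were chosen with earlier results of these data known.

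Alternatives were the replicate number as a block, a filter on low values, a robust prior with intensity trend, array weights, median centring, repeated quantile normalisation, another choice of probe set, adjustment over all probe sets, the 6 arrays of a contrast alone, and leaving out each array. Replicate numbers come from the titles. Control ESC and control NPC arrays with the same number deviated together from their group means (correlation across genes of 0.266, 0.286 and 0.334), which meets the criterion for pairing in that contrast, as read from the values. The printed values come from the fit without the block, and the blocked fit is an alternative. Elsewhere at least 1 pair stayed under 0.1.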

Additional observations from a re-analysis of the deposited data

Results flagged for a closer look

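Knockdown effects differed between ESC and NPC, by the test of the difference itself, for 13 of the genes named, 8 of them cell type or state markers. The genes looked at were the 10 FGF genes, Kdm5b, the 86 further pathway genes measured and the markers. Of all genes, 1.42% were called in this test. Spry4 changed by -0.52 in ESC and 0.35 in NPC, a difference of 0.87 (limma, adjusted p = 0.0407), and Dusp6 by -0.63 and 0.029, a difference of 0.66 (limma, adjusted p = 0.0469). Both calls were lost in 10 of 12 cases on leaving out 1 array, and that of Dusp6 also with the replicate block (0.0516). The knocked-down gene Kdm5b differed by 0.96 (limma, adjusted p = 0.0172), a call lost without control ESC array 3 (0.0591) or knockdown NPC array 2 (0.0512). Cdh2 changed by -0.99 in ESC and -0.12 in NPC, a difference of 0.87 (limma, adjusted p = 0.0239), lost without control ESC array 3 (0.0694), knockdown ESC array 3 (0.0715) or knockdown NPC array 2 (0.0694). Ncam1 changed by 0.76 in ESC and -0.16 in NPC, a difference of -0.92 (limma, adjusted p = 0.0346). The Ncam1 call was lost without control ESC array 3 (0.101), knockdown ESC array 2 (0.0617) or 3 (0.0896), control NPC array 1 (0.0587) or 2 (0.0666), or knockdown NPC array 2 (0.0812) or 3 (0.0569), and with the replicate block (0.0556). Among the formative and primed markers, Dnmt3b changed by -1.19 in ESC and -0.074 in NPC, a difference of 1.12 (limma, adjusted p = 0.0443). Sall2 differed by 1.16 (limma, adjusted p = 0.0437) and Cldn6 by 1.15 (limma, adjusted p = 0.0367). The ESC markers Dppa5a, which changed by 0.049 in ESC and 2.43 in NPC, and Utf1 differed by 2.38 (limma, adjusted p = 0.0443) and 1.37 (limma, adjusted p = 0.0437). The endothelial markers Cdh5, Emcn and Pecam1 differed by -2.05 (limma, adjusted p = 0.037), -2.53 (limma, adjusted p = 0.0397) and -1.55 (limma, adjusted p = 0.0185). All 8 marker calls were lost without control ESC array 3 (0.0635 to 0.13), knockdown ESC array 3 (0.0615 to 0.113) or knockdown NPC array 2 (0.051 to 0.11), and all but that of Pecam1 without further arrays. Those of Dnmt3b, Cldn6, Dppa5a, Utf1, Cdh5 and Emcn were also lost with the replicate block (0.0509 to 0.0585).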

How the results depend on the processing

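Of 1080 values of the 10 FGF genes under alternatives, 1024 kept their side of the threshold, 43 lost a call, 13 gained one and 0 called values changed sign; 10 uncalled values did. All calls from ESC to NPC were kept in every alternative run, in control and knockdown cells, except that of Fgfr1 in control cells, which also ended with array weights (adjusted p = 0.133) and with the 6 control arrays alone (0.0971). For knockdown in ESC, 3 FGF genes were called as reported, 1 with the replicate block on 6 arrays, 1 with the 6 arrays alone, 5 with array weights and 1 to 4 on leaving out an array. Over all genes the count of 979 became 396 with that block, 500 with the 6 arrays and 2887 with array weights, and 193 to 1536 on leaving out an array. For knockdown in NPC, 194 genes became 57 with that block, 29 with the 6 arrays and 83 to 247 on leaving out an array. For the difference of the effects, 2 FGF genes became 1 with the replicate block, with median centring and with adjustment over all probe sets, 4 with array weights and 0 to 3 on leaving out an array. Over all genes that count of 267 became 152 with the replicate block and 955 with array weights, and 35 to 546 on leaving out an array. For the wider pathway in knockdown ESC, 11 calls became 23 with array weights and 5 to 15 on leaving out an array. The cause was not tested, apart from the fewer arrays. Median centring moved the median change of all genes from ESC to NPC in knockdown cells from -0.068 to -0.12. In control NPC against control ESC, where same-numbered arrays count as pairs, the replicate block on all 12 arrays kept all 10 calls; with the block on the 6 control arrays Fgfr1 had an adjusted p of 0.0536. With no detection calls, low values such as those of Fgfr3 in ESC cannot be told from background.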

Other observations

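The FGF homologous factors, relatives of the ligands that stay inside the cell and bind sodium channels, formed a further group of 4 genes, Fgf11, Fgf12, Fgf13 and Fgf14. All 4 rose from ESC to NPC, in control cells with a median change of 0.61 and in knockdown cells with one of 0.93 (limma, adjusted p under 0.05 each), where 23.5% and 23.8% of all genes rose. In control ESC Fgf12 lay at 5.32 to 5.54 and Fgf14 at 5.74 to 6.15, near or below the lower quartiles of the arrays. Fgf14 reached only 6.20 to 6.46 in control NPC. With no detection calls, such low values cannot be told from background. The call of Fgf14 in control cells was lost without control ESC array 1 (0.05), without control NPC array 3 (0.0538) and with array weights (0.0514). That of Fgf11 in knockdown cells, a change of 0.31, was lost without knockdown ESC array 1 (a change of 0.18, adjusted p = 0.193), knockdown NPC array 1 (0.12), knockdown NPC array 3 (0.132) or control ESC array 2 (0.0505). Fgf11 was also lost with median centring (0.0782), with the intensity trend (0.0573) and with the 6 arrays alone (0.0627), also with the block (0.0668). In knockdown ESC, Fgf13 fell: it read 7.86, 7.74 and 8.34 in control ESC and 7.46, 7.39 and 7.27 in knockdown ESC, a change of -0.61 (limma, adjusted p = 0.023). Fgf13 was not called without control ESC array 3, knockdown ESC array 2 or knockdown ESC array 3, with an adjusted p of up to 0.102. Genes of heparan sulfate synthesis or sulfate removal mostly rose from ESC to NPC, 9 higher and 1 lower of 11 in control cells. In knockdown cells 8 were higher and 1 lower, and Hs6st2 changed by 2.72 in control and 3.94 in knockdown cells. The list includes Sulf1 and Sulf2, whose products remove sulfate from heparan sulfate. From control ESC to control NPC the mean of Sulf1 went from 9.83 to 8.29 and that of Sulf2 from 11.52 to 11.76.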
